A study of Homo sapiens with 7 samples.

Results

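FOXM1, B-MYB (gene MYBL2), the MuvB subunits LIN9, LIN37, LIN52, LIN54 and RBBP4, the retinoblastoma protein RB1 and the DP proteins TFDP1 and TFDP2 form the machinery that times transcription in dividing cells. Their 10 genes were taken by name from the 60675 gene rows of a table of read counts, and all 10 passed the filter on low counts. The counts came from the human triple-negative breast cancer line MDA-MB-231, harvested 2 days after transfection with siRNA against DEPDC1 (siDEPDC1, labelled as DEPDC1 KD, 4 libraries) or with control siRNA (siCTL, labelled as DEPDC1 WT, 3 libraries). Every group received 5 µl of 20 µM siRNA with Lipofectamine RNAiMAX, and the medium was replaced after 8 h. The model is a single cell line, and the sources used here do not say whether the DEPDC1 siRNA was 1 duplex or a pool. The labels do not say that libraries came from separate cultures, so the p-values measure no more than the spread among these 7 libraries, which may be technical.

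MuvB is a protein core that changes partners through the cell cycle. In resting and early G1 cells it joins an E2F protein, a DP protein and a pocket protein of the RB family in the repressor called DREAM. In S phase it takes up B-MYB, and later FOXM1, and then activates the genes of G2 and mitosis. LIN54 contacts DNA at the cell cycle genes homology region (CHR), LIN52 links the core to its partner, LIN9 and LIN37 are scaffold subunits, and RBBP4 is a histone-binding protein that also serves other chromatin complexes. RB1 holds back E2F transcription factors, which bind DNA as pairs with TFDP1 or TFDP2. FOXM1 and MYBL2 are themselves most active in proliferating cells and are often abundant in triple-negative tumours.

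The CHR is a short promoter word, TTTGAA or TTCGAA, near the start of many late cell cycle genes. It was searched on both strands in RefSeq promoters (GRCh38.p14, 250 bases before to 50 after the first start listed for each gene). It was present in 39 of 53 promoters of late cell cycle genes described as FOXM1 or B-MYB targets (73.6%), in 2 of 44 promoters of early cell cycle genes (4.55%), in 11.4% of the 11251 promoters of tested genes and in 16.6% of all 27305 promoters. The late list was drawn from genes described as targets, so this share is not independent of how such genes are known. Among the late genes called as higher after DEPDC1 siRNA, 24 of 33 promoters had the CHR (72.7%), near the share of the whole late list. The CHR of 5 late genes that were higher after DEPDC1 siRNA is shown because it is the word that LIN54 contacts. They were chosen, after their values were seen, from 17 genes with a match in the last 50 bases before the start, and capitals mark the word.
CCNB2 (chr15:59105108-59105131, plus strand): gacgcggtaTTTGAAtcctggaac
CDCA8 (chr1:37692484-37692507, plus strand): actgtggagTTTGAAttgggtggc
BUB1B (chr15:40161037-40161060, plus strand): accgttaaaTTTGAAacttggcgg
KIF4A (chrX:70290061-70290084, plus strand): cgggacggaTTTGAAacttggcgg
PLK1 (chr16:23678851-23678874, plus strand): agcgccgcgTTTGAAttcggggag

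Among the 10 regulators, 9 had a promoter in the same table (for RB1 from an internal start), and LIN54 was the 1 gene of them with a CHR word, 100 bases before its start. E2F words (TTTGGCGC, TTTCGCGC, TTTCCCGC or TTTGGCGG, both strands, matches of different words allowed to overlap) were found in 3 of these 9 promoters, against 5.49% of the promoters of tested genes and 3.43% of all promoters. They are shown for LIN52, TFDP1 and TFDP2, which were all higher after DEPDC1 siRNA. MYBL2 and RBBP4 were also higher and had none of these exact words in the promoter searched. E2F sites that differ from the words by any letter were not searched for. Of the promoters of early cell cycle genes, 26 of 44 had an E2F word (59.1%), and more of these genes were lower than higher. Capitals mark the word as it reads on the gene's strand. The matches describe letters only, and binding was not measured.
LIN52 (chr14:74084923-74084946, plus strand, 25 bases before the start): aacctcgtTTTCCCGCcgacggtt
TFDP1 (chr13:113584625-113584648, plus strand, 120 bases before the start): cgccgaagGCGCGAAAaggcgcgc
TFDP2 (chr3:142149511-142149534, minus strand, 19 bases after the start): ctgctccgCCGCCAAAgctcgcgc

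Library totals ran from 7690583 to 13483305 counts in siDEPDC1 and from 11704246 to 15360409 in siCTL. Levels are CPM, that is counts scaled to a common library size with trimmed-mean (TMM) factors, and fold changes are siDEPDC1 over siCTL. The words "higher", "lower", "rose" and "fell" refer to an adjusted p below 0.05 over 16583 tested genes. DEPDC1 itself fell to 13.3 ± 1.43 CPM in siDEPDC1, against 118 ± 3.20 CPM in siCTL (SD, n = 4 and 3). The mesenchymal marker VIM, at 3671 ± 125 CPM in siDEPDC1 and 3713 ± 166 CPM in siCTL, and the oestrogen and progesterone receptor genes ESR1 and PGR, at no more than 0.651 CPM in any library, were as known for this line. The epithelial cadherin CDH1, also low, was the 1 cell line marker called, at 0.372 CPM in siDEPDC1 and 1.11 CPM in siCTL on average (log2 fold change -1.55, edgeR adjusted p = 0.0030). Of 10 markers of other cell types, 4 were tested and 2 were higher. Their summed level was 46.6 to 54.7 CPM in siDEPDC1 and 32.5 to 33.8 CPM in siCTL, of which COL1A1 made up 30.2 ± 2.52 CPM in siDEPDC1 and 12.9 ± 1.35 CPM in siCTL. The monocyte marker CD14 was the other called as higher, with 3.25 ± 0.634 CPM in siDEPDC1 and 2.06 ± 0.498 CPM in siCTL (edgeR adjusted p = 0.028). The hepatocyte marker ALB had 0 counts in every siDEPDC1 library and 3 counts in 1 siCTL library, the muscle marker DES had at most 2 counts in siDEPDC1 and 0 in every siCTL library, and the part of such cells in the results below was not tested.

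After DEPDC1 siRNA 6 of the 10 regulators were higher and none was lower. Over all tested genes 34.4% were called, 16.5% as higher and 17.9% as lower. The rises were in FOXM1, MYBL2, LIN52, RBBP4, TFDP1 and TFDP2, by 1.11-fold to 1.49-fold, while LIN9, LIN37, LIN54 and RB1 did not pass the test. In 5 genes every siDEPDC1 library lay above every siCTL library, a pattern shared by 17.7% of tested genes, and in none did every siDEPDC1 library lie below (19.6% of tested genes). The median log2 fold change of the 10 genes was 0.18, beside 0.00094 over all tested genes.

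**Figure D1:**
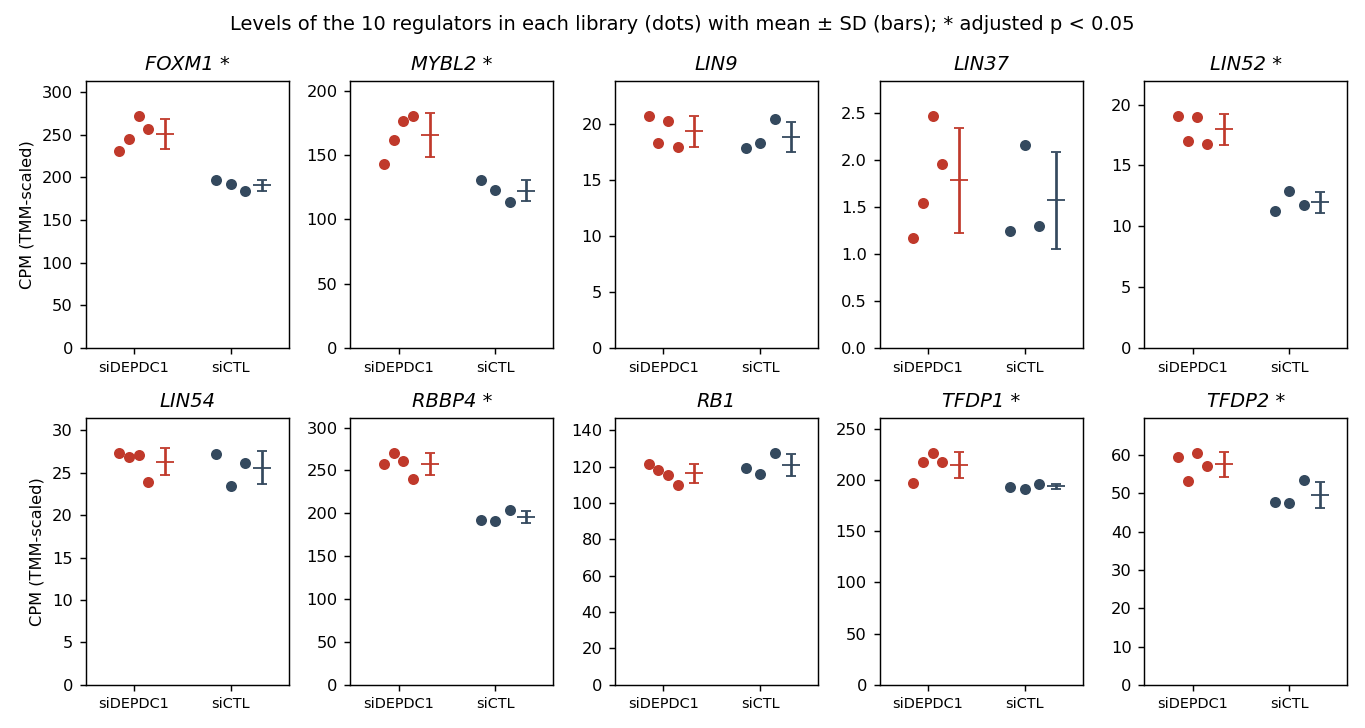
Each panel plots the TMM-scaled CPM (y axis, from 0) of 1 gene in the 4 siDEPDC1 libraries (left) and the 3 siCTL libraries (right) as dots, with the mean and SD beside them; a star marks an adjusted p below 0.05. The 2 groups do not overlap for FOXM1, MYBL2, LIN52, RBBP4 and TFDP1.

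FOXM1 (ENSG00000111206; chromosome 12, 2857681 to 2877155, minus strand, GENCODE 29 on GRCh38), the forkhead factor that drives mitotic genes, was at 231, 245, 272 and 256 CPM in the siDEPDC1 libraries, against 196, 192 and 184 CPM in the siCTL libraries. All siDEPDC1 libraries were above all siCTL libraries, with replicate 1 the lowest of them. The log2 fold change was 0.39 ± 0.058 (SE; edgeR quasi-likelihood test, adjusted p = 1.6e-06), a 1.31-fold rise. FOXM1 shares 781 exon bases, 15.9% of its exon sequence, with ITFG2 on the opposite strand, and ITFG2 also rose, to 70.7 ± 4.45 CPM in siDEPDC1, against 56.7 ± 3.26 CPM in siCTL. The sources used here do not give the strand setting of the counting, so reads in that overlap cannot be told apart.

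Neither of the genes that start near FOXM1 on the opposite strand was called as higher. RHNO1, a DNA damage checkpoint gene read in the opposite direction from a start 897 bases inside FOXM1, was at 31.5 ± 1.71 CPM in siDEPDC1 and 32.9 ± 2.03 CPM in siCTL, and was not called (log2 fold change -0.059 ± 0.076 SE, edgeR adjusted p = 0.58). TULP3, a cilia trafficking gene that starts 68 bases from FOXM1, fell, with 30.2 ± 1.83 CPM in siDEPDC1 and 39.4 ± 2.39 CPM in siCTL (log2 fold change -0.38 ± 0.075 SE, edgeR adjusted p = 0.00014).

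MYBL2 (ENSG00000101057; chromosome 20, 43667019 to 43716496, plus strand), which encodes B-MYB, the S phase partner of MuvB, was at 143, 162, 176 and 180 CPM in the siDEPDC1 libraries and at 130, 123 and 114 CPM in the siCTL libraries. The groups did not overlap, but the gap between siDEPDC1 replicate 1 and siCTL replicate 1 was small beside the spread within siDEPDC1. The log2 fold change was 0.43 ± 0.067 (SE; edgeR adjusted p = 4.0e-06), a 1.35-fold rise. Its paralog MYBL1, a germ cell factor, fell to 54.5 ± 4.71 CPM in siDEPDC1, against 69.7 ± 7.47 CPM in siCTL (log2 fold change -0.35 ± 0.073 SE, edgeR adjusted p = 0.00025). MYB, the third gene of the family, was low and not called, at 2.22 ± 0.197 CPM in siDEPDC1 and 1.59 ± 0.595 CPM in siCTL (edgeR adjusted p = 0.093).

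Levels in MYBL2 and FOXM1 were also set beside the base composition of the libraries, because both transcripts are rich in G and C (60.5% and 55.6%, against a median of 48.3% over tested genes). The mean log2 level of the 25% of genes with the highest GC content, minus that of the 25% with the lowest, each centred on the gene's own mean, was -0.094, 0.019, 0.10 and 0.23 in siDEPDC1 replicates 1 to 4 and -0.011, -0.037 and -0.21 in siCTL replicates 1 to 3. Within each group the libraries thus had the same order by MYBL2 level as by the GC measure, with siDEPDC1 replicate 1 and siCTL replicate 3 lowest. By FOXM1 level the order was the same in siCTL. In siDEPDC1 it was not, with 272 CPM of FOXM1 in replicate 3 and 256 CPM in replicate 4. The measure was also higher in siDEPDC1 replicates 2 to 4 than in every siCTL library. In siDEPDC1 replicate 1 it was under that of siCTL replicates 1 and 2. With a trend on GC content and transcript length removed from each library, the 6 regulators stayed called as higher, with log2 fold changes of 0.35 for FOXM1, 0.36 for MYBL2, 0.52 for RBBP4, 0.60 for LIN52, 0.32 for TFDP2 and 0.16 for TFDP1.

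Of the 5 MuvB subunits, LIN52 and RBBP4 rose and LIN9, LIN37 and LIN54 did not pass the test. LIN52 (ENSG00000205659; chromosome 14, 74084796 to 74201235, plus strand), the small subunit whose phosphorylation by DYRK1A favours the DREAM form, was at 19.1, 17.0, 19.0 and 16.8 CPM in the siDEPDC1 libraries and at 11.3, 12.9 and 11.7 CPM in the siCTL libraries. Its groups stood clearly apart, and its log2 fold change of 0.57 ± 0.098 (SE; edgeR adjusted p = 1.8e-05), or 1.49-fold, was the highest of the 10 genes. It rested on 135 to 231 counts per library, fewer than for FOXM1. ALDH6A1, a mitochondrial dehydrogenase gene that starts 303 bases from LIN52 on the opposite strand, had a log2 fold change of -0.027 ± 0.081 (SE; edgeR adjusted p = 0.83).

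RBBP4 (ENSG00000162521; chromosome 1, 32651142 to 32686211, plus strand) was at 258, 271, 261 and 240 CPM in the siDEPDC1 libraries and at 192, 191 and 204 CPM in the siCTL libraries. Every siDEPDC1 library was above every siCTL library, and the log2 fold change was 0.40 ± 0.056 (SE; edgeR adjusted p = 7.3e-07). SYNC, an intermediate filament gene on the opposite strand, shares 1706 exon bases with it (18.0% of the RBBP4 exon sequence) and rose by nearly the same amount (log2 fold change 0.41 ± 0.072 SE, edgeR adjusted p = 2.5e-05). SYNC averaged 79.1 ± 7.19 CPM in siDEPDC1 and 59.5 ± 5.66 CPM in siCTL, and without the strand setting its reads and those of RBBP4 cannot be told apart. The paralog RBBP7, another histone-binding protein of chromatin complexes, rose less, to 172 ± 8.60 CPM in siDEPDC1, against 155 ± 1.13 CPM in siCTL (log2 fold change 0.15 ± 0.056 SE, edgeR adjusted p = 0.032). The RBBP7 call was lost without siDEPDC1 replicate 2 or 3 or any 1 siCTL library (edgeR adjusted p from 0.083 to 0.11) and with no count filter (0.11). RBBP4 has 7 pseudogene copies in the table with at most 22 counts in any library, so few reads were assigned to them.

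LIN9 (ENSG00000183814; chromosome 1, 226231149 to 226309869, minus strand) was at 20.7, 18.3, 20.3 and 18.0 CPM in the siDEPDC1 libraries and at 17.8, 18.3 and 20.4 CPM in the siCTL libraries. LIN54 (ENSG00000189308; chromosome 4, 82909973 to 83012926, minus strand) was at 27.4, 26.8, 27.1 and 24.0 CPM in siDEPDC1 and at 27.3, 23.4 and 26.2 CPM in siCTL. Both pairs of groups overlapped, with log2 fold changes of 0.034 ± 0.089 and 0.040 ± 0.081 (SE; edgeR adjusted p = 0.80 and 0.74). A rise of the size of that in TFDP1 lies within 2 SE of both values. TESMIN, a paralog of LIN54, rose at a low level, with 7.69 ± 1.25 CPM in siDEPDC1 and 5.11 ± 0.417 CPM in siCTL (edgeR adjusted p = 0.0018).

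LIN37 (ENSG00000267796; chromosome 19, 35748361 to 35754519, plus strand), a subunit needed for repression by DREAM, could hardly be measured. It had 1.17, 1.55, 2.47 and 1.96 CPM in the siDEPDC1 libraries and 1.25, 2.17 and 1.30 CPM in the siCTL libraries, from 12 to 33 counts per library. The groups overlapped throughout, and the log2 fold change of 0.11 ± 0.27 (SE; edgeR adjusted p = 0.79) was smaller than its error. In GENCODE 29 an antisense gene, ENSG00000267439, covers 41.8% of the LIN37 exon bases and held 8.60 ± 1.58 CPM in siDEPDC1 and 7.15 ± 0.583 CPM in siCTL, and a same-strand gene, ENSG00000188223, covers 26.7% of them and had 0 counts in every library. The sources used here do not say how reads in overlapping genes were counted, so what part of the reads of this locus the LIN37 count holds cannot be told.

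RB1 (ENSG00000139687; chromosome 13, 48303726 to 48599436, plus strand), the founding pocket protein and a tumour suppressor, was at 121, 118, 115 and 110 CPM in the siDEPDC1 libraries, against 119, 116 and 128 CPM in the siCTL libraries. The groups overlapped, and the log2 fold change of -0.057 ± 0.058 (SE; edgeR adjusted p = 0.48) was not called. With the GC and length trend removed the value was 0.058 and again did not pass (edgeR adjusted p = 0.28). The other pocket proteins, RBL1 and RBL2, are the ones that join MuvB in DREAM. RBL2 rose to 49.5 ± 2.94 CPM in siDEPDC1, against 43.8 ± 1.45 CPM in siCTL (log2 fold change 0.18 ± 0.069 SE, edgeR adjusted p = 0.042). This call was lost without any of siDEPDC1 replicates 1 to 3 or siCTL replicates 1 and 2 (edgeR adjusted p from 0.051 to 0.16), with no count filter (0.13) and with DESeq2 (0.070). RBL1, at 71.4 ± 7.81 CPM in siDEPDC1 and 75.2 ± 2.28 CPM in siCTL, did not pass the test (edgeR adjusted p = 0.39).

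The DP genes rose slightly. TFDP1 (ENSG00000198176; chromosome 13, 113584721 to 113641470, plus strand) was at 197, 218, 227 and 217 CPM in the siDEPDC1 libraries and at 194, 192 and 196 CPM in the siCTL libraries. Replicate 1 of siDEPDC1 lay at the upper edge of siCTL and the other siDEPDC1 libraries above it, and the log2 fold change was 0.15 ± 0.056 (SE; edgeR adjusted p = 0.040). This call was lost without siDEPDC1 replicate 2 or 3 (edgeR adjusted p = 0.089 and 0.13) and without siCTL replicate 1, 2 or 3 (edgeR adjusted p = 0.11, 0.14 and 0.064), and with no count filter (edgeR adjusted p = 0.13).

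TFDP2 (ENSG00000114126; chromosome 3, 141944428 to 142149544, minus strand) was at 59.6, 53.3, 60.7 and 57.1 CPM in the siDEPDC1 libraries and at 47.7, 47.5 and 53.4 CPM in the siCTL libraries. The groups touched, with siDEPDC1 replicate 2 just under siCTL replicate 3, and the log2 fold change was 0.22 ± 0.069 (SE; edgeR adjusted p = 0.013). The call was lost without siCTL replicate 1 (edgeR adjusted p = 0.072) or siCTL replicate 2 (edgeR adjusted p = 0.087). Per exon base, TFDP1 exceeded TFDP2 by 11.9 ± 1.02 times in siDEPDC1 and 12.5 ± 0.685 times in siCTL (SD, n = 4 and 3). The size of this ratio rests on annotated exon lengths of 3741 bases for TFDP1 and 11897 for TFDP2. Whether all these bases are transcribed in these cells was not tested. The log2 ratio differed by -0.075 (two-sided exact permutation test over libraries, p = 0.51; this design can reach 0.029 at the lowest).

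The annotated 3' UTR of RBBP4 and TFDP2 holds the word GATAACT, which was chosen for search with earlier results of these data known, since genes that carry it were often lower. The other 8 regulators had no copy in the transcript searched. Of 904 carriers among 12205 tested genes with a searched 3' UTR, 54.3% were lower and 8.19% higher. Over all tested genes 17.9% were lower and 16.5% higher. RBBP4 ranked 37th and TFDP2 87th from the top by log2 fold change among these carriers. The copies are printed with those of 3 cell cycle genes that fell, CKAP2, GINS1 and RRM1, and capitals mark the word. All lie in the last exon of the transcript searched, on GENCODE 29 coordinates (GRCh38).
RBBP4 (chr1:32685235-32685257, plus strand): agccctcaGATAACTttctcatt
TFDP2 (chr3:141949205-141949227, minus strand): ataaagagGATAACTccttccat
CKAP2 (chr13:52475976-52475998, plus strand): atttctaaGATAACTgatactaa
GINS1 (chr20:25446099-25446121, plus strand): ttgtttaaGATAACTaagaatac
RRM1 (chr11:4138782-4138804, plus strand): aactgagtGATAACTcatgagaa
In the transcripts searched, the RBBP4 copy starts 5538 bases into a 3' UTR of 6506 bases and the TFDP2 copy 3294 bases into one of 8085 bases, while the GINS1 copy starts at base 116 of its 3' UTR. Whether the transcripts present in these cells reach the RBBP4 and TFDP2 copies was not tested.

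Scaled for exon length, as TPM (transcripts as a share of the library total, with each count divided by the union of annotated exons), the regulators fell into a high and a low tier. In siDEPDC1 the order was MYBL2 (201 ± 16.6 TPM), TFDP1 (193 ± 7.04), FOXM1 (172 ± 8.58), RBBP4 (91.8 ± 5.06) and RB1 (60.8 ± 3.80), and in siCTL it was TFDP1 (175 ± 0.110), MYBL2 (149 ± 11.4), FOXM1 (131 ± 5.84), RBBP4 (69.8 ± 1.66) and RB1 (63.3 ± 2.34). The ranges of MYBL2 and TFDP1 overlapped in siDEPDC1, so their order there is not resolved, whereas TFDP1 was above MYBL2 in each siCTL library. The low tier held LIN52, TFDP2, LIN9 and LIN54. Their means lay between 13.1 and 16.4 TPM in siDEPDC1 and between 11.0 and 14.3 TPM in siCTL. The place of TFDP2 rests on division by 11897 annotated exon bases. Neighbours in this tier overlapped in range in both groups. LIN52 had the highest mean of these 4 in siDEPDC1, unresolved from TFDP2, and the lowest in siCTL. LIN37 was lowest, at 2.13 ± 0.626 TPM in siDEPDC1 and 1.89 ± 0.638 TPM in siCTL.

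**Figure D2:**
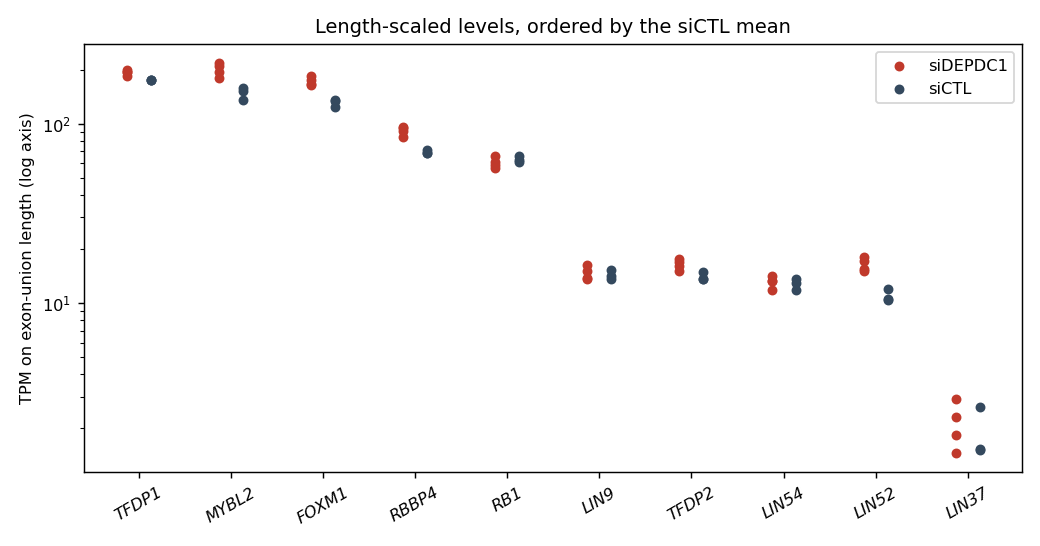
The y axis gives the level of each gene in TPM on exon-union length (log axis), with 1 dot per library, siDEPDC1 on the left of each pair and siCTL on the right; genes are ordered by the siCTL mean. TFDP1, MYBL2, FOXM1, RBBP4 and RB1 lie above 50 TPM in every library and the 4 remaining MuvB genes and TFDP2 lie below 20 TPM.

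Among 10 partners and paralogs of the regulators, 9 were tested, 3 were higher (RBL2, RBBP7 and TESMIN) and 2 lower (MYBL1 and E2F5). The median log2 fold change was 0.026, and 1 gene was higher without siDEPDC1 replicate 2 or 3 or without siCTL replicate 1 or 2. E2F5, an E2F of the repressor class that can pair with DP proteins in DREAM, fell to 18.1 ± 1.70 CPM in siDEPDC1, against 22.3 ± 1.09 CPM in siCTL (log2 fold change -0.30 ± 0.088 SE, edgeR adjusted p = 0.0075). E2F4, the main E2F of DREAM, was at 88.8 ± 4.55 CPM in siDEPDC1 and 87.1 ± 4.11 CPM in siCTL (edgeR adjusted p = 0.78). DYRK1A, the LIN52 kinase, had a log2 fold change of -0.11 ± 0.071 (SE; edgeR adjusted p = 0.24). TFDP3, the testis-enriched DP gene, had 1 count in 1 siDEPDC1 library and none elsewhere.

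Of 17 cell cycle regulators that act on these proteins, 16 were tested, 8 were higher (50%) and 3 lower (18.8%). Over all tested genes 16.5% were higher and 17.9% lower. The 16 genes had a median log2 fold change of 0.18. Cyclin A2, whose kinase complex with CDK2 phosphorylates B-MYB and FOXM1, rose to 165 ± 10.2 CPM in siDEPDC1, against 130 ± 2.83 CPM in siCTL. CDK2 rose to 99.8 ± 3.85 CPM in siDEPDC1, against 80.2 ± 2.46 CPM in siCTL (log2 fold changes 0.35 ± 0.058 and 0.32 ± 0.059 SE, edgeR adjusted p = 1.3e-05 and 6.7e-05). PLK1, which phosphorylates FOXM1 and B-MYB in G2, was at 166, 184, 196 and 191 CPM in the siDEPDC1 libraries and at 155, 162 and 149 CPM in the siCTL libraries (log2 fold change 0.24 ± 0.059 SE, edgeR adjusted p = 0.0016). Cyclin B1, at 321 ± 16.3 CPM in siDEPDC1 and 244 ± 12.7 CPM in siCTL, also rose (edgeR adjusted p = 8.7e-07). The cyclins D1 and D3, which direct CDK4 and CDK6 to RB1, rose 1.19-fold and 1.18-fold (edgeR adjusted p = 0.00041 and 0.00094), while CDK4 and CDK6 did not pass the test (log2 fold changes 0.15 and -0.10).

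The CDK inhibitors CDKN1A and CDKN1B, which restrain the cycle, were both higher, with log2 fold changes of 0.55 ± 0.067 and 0.22 ± 0.065 (SE; edgeR adjusted p = 4.1e-08 and 0.0077). CDKN2A, an inhibitor of CDK4 and CDK6, had 0 counts in every library. The 3 genes that fell were CCNE2, SKP2 and CDK1. The call of CDK1 was lost without siDEPDC1 replicate 4 (edgeR adjusted p = 0.12) and without siCTL replicate 2 or 3 (edgeR adjusted p = 0.096 and 0.084), and with library size alone as the scaling (edgeR adjusted p = 0.068). CCNE2, a cyclin of S phase entry, averaged 21.7 CPM in siDEPDC1 and 29.8 CPM in siCTL (log2 fold change -0.46 ± 0.081 SE, edgeR adjusted p = 2.9e-05). SKP2, a ubiquitin ligase subunit that degrades CDKN1B and itself a cell cycle gene, had 46.2 ± 4.16 CPM in siDEPDC1 and 54.6 ± 2.14 CPM in siCTL (edgeR adjusted p = 0.0078). CCNE2 also carries GATAACT in its 3' UTR.

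**Figure D3:**
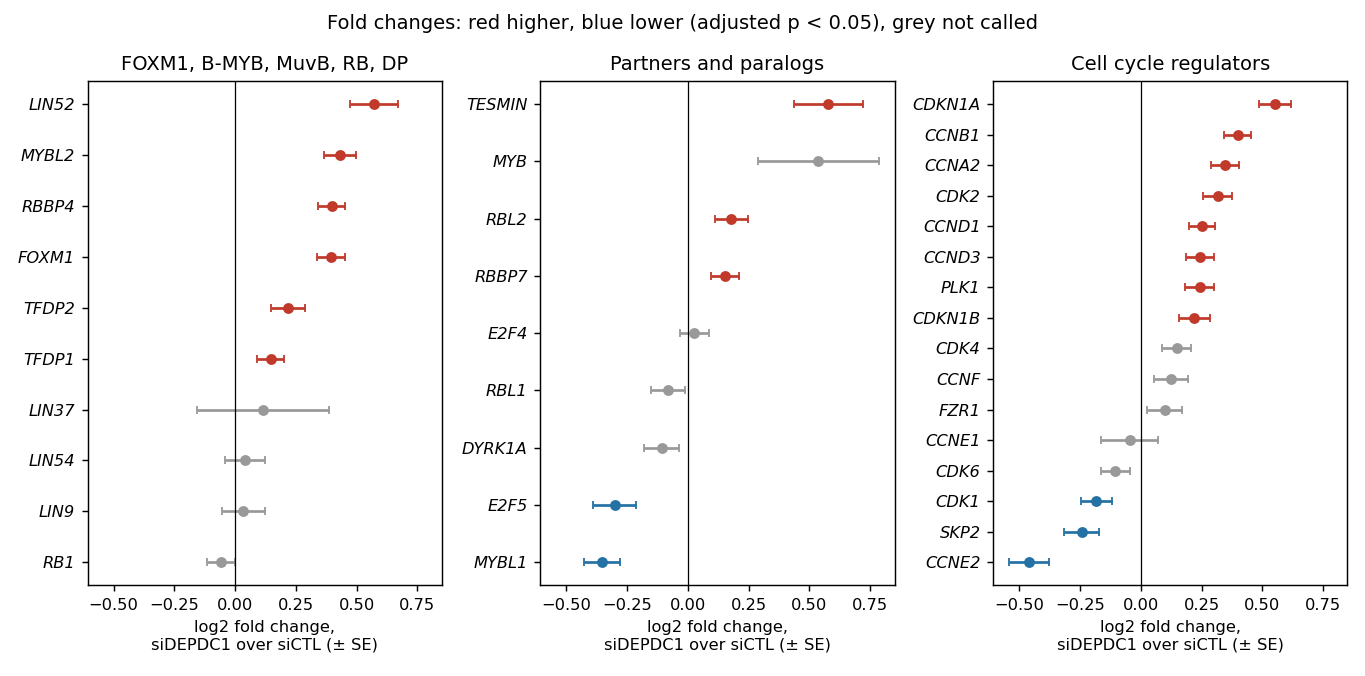
Points give the log2 fold change (x axis, siDEPDC1 over siCTL) with its SE for the 10 regulators, their 9 tested partners and paralogs and 16 tested cell cycle regulators; red is higher, blue lower and grey not past the threshold. LIN52 at 0.57, MYBL2 at 0.43, RBBP4 at 0.40 and FOXM1 at 0.39 lead the first panel.

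The late genes that B-MYB, MuvB and FOXM1 are known to activate were mostly higher. Of 60 such genes 59 were tested, 40 were higher (67.8%) and 4 lower (6.78%), with a median log2 fold change of 0.22. The shares over all tested genes were 16.5% higher and 17.9% lower. The list includes DEPDC1 itself, and without it the counts were 40 and 3 of 58. It also shares 5 genes with the cell cycle regulators above, and the early list below shares 2 with them. The lists are therefore not separate sets of genes. PIMREG, a mitotic regulator, rose to 73.5 ± 6.99 CPM in siDEPDC1, against 46.3 ± 2.97 CPM in siCTL (1.58-fold, edgeR adjusted p = 4.3e-09). DLGAP5, a spindle assembly factor, rose to 302 ± 20.5 CPM in siDEPDC1, against 205 ± 8.01 CPM in siCTL (1.47-fold, edgeR adjusted p = 1.7e-09). The rule for named genes also took the securin PTTG1, the kinesin KIF20A and the kinase AURKA, whose log2 fold changes were 0.61, 0.56 and 0.39.

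Besides DEPDC1, the late genes that fell were CKAP2, CDK1 and MELK. CKAP2, a microtubule-binding protein whose 3' UTR carries GATAACT, had 110 ± 9.05 CPM in siDEPDC1 and 162 ± 4.54 CPM in siCTL (log2 fold change -0.56 ± 0.061 SE, edgeR adjusted p = 3.4e-09). The count of late genes that were lower was 2 without siDEPDC1 replicate 4 and without siCTL replicate 2 or 3. MELK, a kinase expressed in dividing cells, and CDK1 fell less (log2 fold changes -0.16 and -0.18, edgeR adjusted p = 0.028 and 0.025). The MELK call was lost without siDEPDC1 replicate 3 or 4 or siCTL replicate 2 or 3 (edgeR adjusted p from 0.054 to 0.14) and with library size alone (0.081). MELK is named after its value was seen, as the last of the 4. In bulk cells, a larger share of cells in G2 and mitosis and more of these transcripts per cell cannot be told apart.

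Of 53 tested early genes that E2F and DP proteins activate, 9 were higher (17.0%) and 15 lower (28.3%). The share higher was near the 16.5% of all tested genes, of which 17.9% were lower. The early list had a median log2 fold change of -0.074. Without siCTL replicate 2 the number lower was 9. GINS1, a helicase subunit, and RRM1, a ribonucleotide reductase subunit, had the smallest adjusted p of the list and fell, with log2 fold changes of -1.54 and -0.61, and both carry GATAACT. GMNN, which encodes the replication licensing inhibitor geminin, had no copy in the 3' UTR searched and fell to 41.0 ± 2.81 CPM in siDEPDC1, against 65.6 ± 2.51 CPM in siCTL (edgeR adjusted p = 7.7e-10). ATAD2, a chromatin ATPase, also fell (log2 fold change -0.43, edgeR adjusted p = 4.0e-07) and is a carrier. E2F1, E2F2 and TK1, an enzyme of thymidine salvage, rose, with log2 fold changes of 0.41, 0.50 and 0.31. Without the 4 carriers in the list, 9 of 49 genes were higher and 11 lower. These carriers were all called as lower, and the word was chosen with earlier results of these data known. The smaller number lower was therefore fixed in advance and tests nothing about the word.

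**Figure D4:**
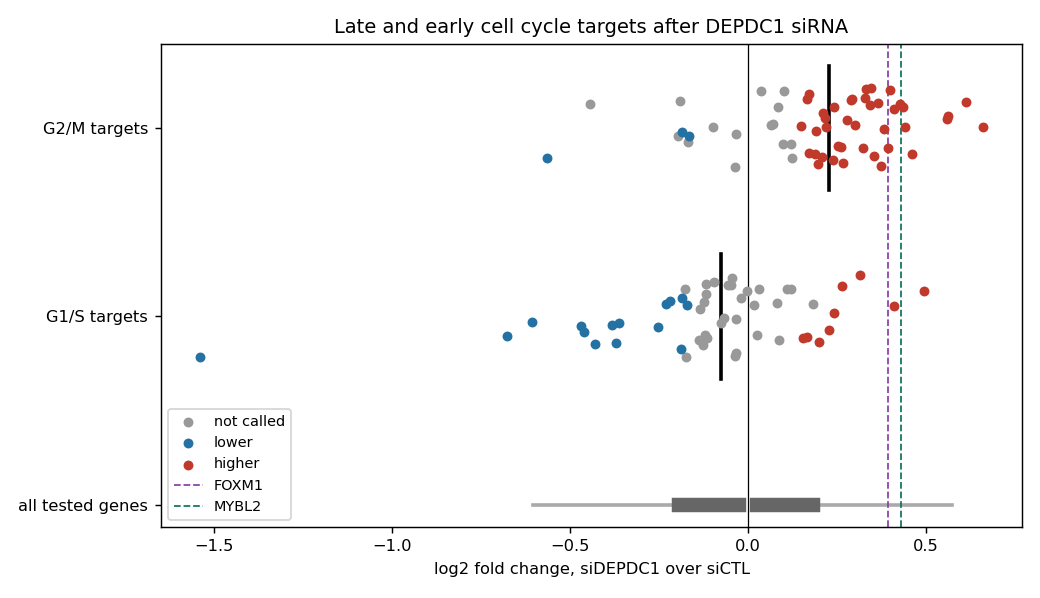
Each dot is 1 gene, placed by its log2 fold change (x axis, siDEPDC1 over siCTL) in the late (G2/M, DEPDC1 left out) or early (G1/S) list, with black lines at the list medians; vertical scatter has no meaning. The bottom bar spans the middle 50% of all tested genes and the thin line the middle 90%, and dashed lines mark FOXM1 (0.39) and MYBL2 (0.43). The late genes lie mostly to the right of 0, the early genes on either side.

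By root mean square difference of centred log2 CPM over the 7 libraries, among 12163 tested genes with a mean of at least 5 CPM, the profiles most like FOXM1 were those of NCAPD2, a condensin subunit (0.018), FOXRED2, an endoplasmic reticulum protein (0.018), and URM1, a tRNA-modifying ubiquitin-like protein (0.025). NCAPD2 was at 420 CPM in siDEPDC1 and 320 CPM in siCTL on average. The nearest to MYBL2 were H1-10, a linker histone (0.027), PPDPF (0.034) and CNN2, an actin-binding calponin (0.034). FOXM1 was the 34th nearest profile to MYBL2 and MYBL2 the 87th nearest to FOXM1, at a difference of 0.059 log2 units. This measure reflects the shift between the groups as well as the order of libraries within them.

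**Figure D5:**
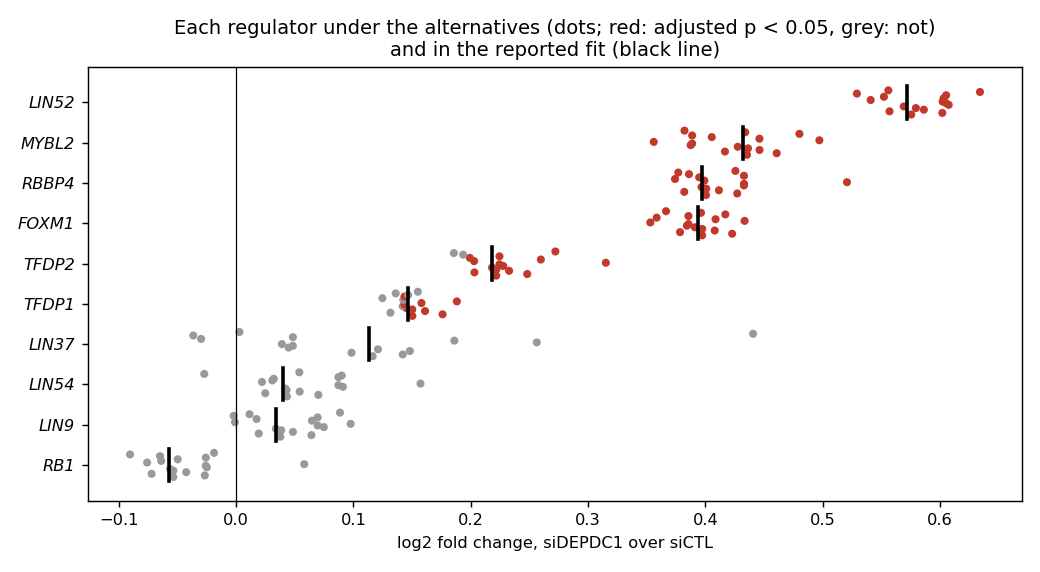
For each regulator, dots give the log2 fold change (x axis, siDEPDC1 over siCTL) under each alternative processing or left-out library, red where the adjusted p is below 0.05 and grey where it is not, and the black line gives the reported value. FOXM1, MYBL2, LIN52 and RBBP4 stay red throughout, between 0.35 and 0.63, while TFDP1 and TFDP2 change colour and LIN9, LIN37, LIN54 and RB1 stay grey.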

How the data were processed

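The authors deposited raw counts per Ensembl gene for 7 libraries. The submitters' processing notes list STAR (2.7.9a), FastQC and DESeq2 beside the build GRCh38, without roles. The sources used here do not give the read counter, annotation release or strand setting. After filterByExpr by group, edgeR (4.0.16, under R 4.3.3) was used for each gene (TMM, robust glmQLFit, glmQLFTest, two-sided, Benjamini-Hochberg over all 16583 tested genes, threshold 0.05). SE is the absolute log2 fold change divided by the square root of F. Symbols came from a name table. Coordinates, lengths and GC content came from GENCODE 29, which may not be the release counted. A single transcript per gene, that with the longest coding sequence, gave the 3' UTR, searched where it had at least 50 bases. Every pair of libraries differed beyond sampling noise (chi-square per degree of freedom at least 1.62).

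The genes and lists were chosen with earlier results of these data known. All regulators, tested partners and cell cycle regulators could be named, and from each target list up to 5 called genes with the smallest adjusted p in the commoner direction and 3 in the other. Alternatives were DESeq2 1.42.0, limma-voom (limma 3.58.1), other scalings and filters, a replicate block, removal of a GC and length trend (loess, span 0.4) and each library left out.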

Additional observations from a re-analysis of the deposited data

Results flagged for a closer look

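The siDEPDC1 libraries were examined in 55 sets (genes named in the text, means of lists and the DP ratio). A set was flagged where 1 library stood far from the other 3, and 6 sets were flagged. For a single set chance gives about 1 in 20. The sets share libraries and some genes, so this rate cannot be applied to the number flagged. Replicate 4 was low in 4 of the 6 flagged sets. It had 24.0 CPM of LIN54, against 26.8 to 27.4 CPM in the others, 19.1 CPM of CCNE2, against 22.3 to 22.8 CPM, and 146 CPM of ATAD2, against 168 to 172 CPM. The mean log2 CPM of the tested partners and paralogs was 5.01 in replicate 4 and 5.12 to 5.14 in the others. Replicate 1 was low for E2F1, with 93.3 CPM against 111 to 113 CPM. Replicate 2 was high for CDKN1B, with 66.0 CPM against 60.0 to 60.7 CPM.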

How the results depend on the processing

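Of 183 recomputed values of 12 tested results, 168 kept their direction and their side of the threshold. The 168 include 8 values of the TFDP1 to TFDP2 ratio, which could not have crossed the threshold. With 1 library left out its permutation test could reach no p below 0.067, and division by length cannot change its difference. Of 176 recomputed counts of calls, 162 stayed within 1.5 times the reported count. Regulators called as higher numbered 4 to 6, and all genes called 4497 to 6680. FOXM1, MYBL2, LIN52 and RBBP4 were called as higher under all 16 alternatives, and no regulator was called as lower. The fit of 6 libraries without a replicate block is the same as that without siDEPDC1 replicate 4. It is counted under both names in these totals. TFDP1 was not called with no count filter (log2 fold change 0.13, edgeR adjusted p = 0.13) or with the replicate block (log2 fold change 0.14, edgeR adjusted p = 0.092, against 0.048 without the block on the same 6 libraries), and its log2 fold change ranged from 0.12 to 0.19 with 1 library left out, and that of TFDP2 from 0.19 to 0.27. RB1 changed sign, uncalled, with the GC and length trend removed (0.058). With 1 library left out, LIN9 ranged from -0.0021 to 0.089 (-0.00090 without siDEPDC1 replicate 1), LIN37 from -0.036 to 0.44 (-0.030 without siDEPDC1 replicate 3) and LIN54 from -0.027 to 0.090, all uncalled. LIN37 was not tested with the stricter filter of 50 counts. Partners called higher numbered 1 with no count filter and 1 to 3 with 1 library left out, and late genes called lower 2 with library size alone and 2 to 6 with 1 library left out. Early genes called lower ranged from 9 to 15 with 1 library left out. The cause was not tested. Deviations from the group means were not positively correlated between same-numbered libraries (-0.10, -0.0012 and -0.080 for replicates 1 to 3). With so few libraries these values cannot decide whether the replicate numbers pair the libraries. With the replicate block on 6 libraries, partners called lower numbered 1, cell cycle regulators called lower 1 (CCNE2), and late genes called lower 2, as did late genes without the block on the same 6 libraries. LIN37 had only 12 to 33 counts per library, and the cause of these low counts was not tested.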

Other observations

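Some genes annotated inside or beside the regulators were called as lower where the regulator was not called. RCBTB2, annotated within RB1 on the opposite strand with no shared exon bases, had 1.79 ± 0.561 CPM in siDEPDC1 and 3.89 ± 0.490 CPM in siCTL (log2 fold change -1.16 ± 0.21 SE, edgeR adjusted p = 4.6e-05). THAP9, which overlaps the LIN54 gene on the opposite strand with no shared exon bases, had 2.46 ± 0.475 CPM in siDEPDC1 and 3.93 ± 0.195 CPM in siCTL (log2 fold change -0.66 ± 0.19 SE, edgeR adjusted p = 0.0062). The level of each was under 5 CPM, and both were chosen after their values were seen.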
